A study of Mus musculus with 7 samples.

Results

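Sorl1 and 7 other mouse genes whose human counterparts lie at loci associated with Alzheimer's disease risk (Bin1, Picalm, Abca7, Cd2ap, Ptk2b, Clu and Abi3) were examined in microglia, the resident macrophages of the brain, sorted from inside and outside WT neuronal grafts. The 8 genes were matched by their symbols in a table of 55341 gene names. They were chosen by their symbols together with measured values of these same libraries, so their differences between inside and outside are given as descriptions and support no test. All 8 passed the filter on low counts, with 15257 genes in all, but Clu did so with at most 29 counts in a library.

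The hosts were female 5xFAD mice on a C57BL/6 background, labelled as 14 weeks old, which express mutant human APP and PS1 in neurons from the Thy1 promoter and deposit Aβ. Cortical neurons of WT C57BL/6 embryos had been injected into the cortex, and CD11b+CD45low cells were sorted 4 weeks later. The inside graft group comprised 3 libraries from excised grafts and the outside graft group 4 libraries from small cortical pieces nearby. Every library of both groups therefore came from a 5xFAD host that carried a WT graft, and no library from an ungrafted or nontransgenic mouse entered the comparison. The labels do not state which libraries came from the same mouse, so the spread between libraries may be partly technical.

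Most of the 8 genes act in membrane traffic, lipid handling or actin remodelling. Sorl1 encodes a sorting receptor of the VPS10 family that binds APP and works with the retromer coat to move cargo out of endosomes. Bin1 encodes a membrane-bending BAR adaptor and Picalm a clathrin assembly protein of endocytosis. Abca7 encodes a lipid transporter, and Clu encodes clusterin, a secreted chaperone and apolipoprotein made in the brain mainly by astrocytes. Cd2ap links membrane receptors to actin, Ptk2b encodes the tyrosine kinase Pyk2, and Abi3 encodes a subunit of the WAVE complex that drives actin branching and is abundant in microglia.

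In the annotation used for counting (GENCODE M21, GRCm38), Sorl1 lay at chr9:41964720-42124297 on the minus strand and Picalm at chr7:90130213-90213465 on the plus strand. Abca7 lay at chr10:79996494-80015572 (plus), Cd2ap at chr17:42792951-42876665 (minus) and Abi3 at chr11:95830074-95842476 (minus). Clu at chr14:65968483-65981547 (plus) and Ptk2b at chr14:66153257-66281052 (minus) were separated by 171709 bases. Strand was not used in counting, which matters most for Abi3: 75.8% of its 4153 exon bases were shared with genes on the other strand, mainly Zfp652, with which it shared 2913 bases. The Abi3 counts are therefore uncertain. Of the Bin1 exon bases 6.22% were shared, of those of Sorl1 1.63%, and of those of the other 5 genes none.

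The sequence just before the gene start is shown for Sorl1 and Picalm, because they differed between the groups in opposite directions, with no overlap of libraries, and have an entry in the RefSeq promoter table (build GRCm38.p6), as do Abca7 and Cd2ap. Bin1 was not looked up in that table. The entry shown for each of Sorl1 and Picalm begins at the start of the GENCODE gene. The table holds a second Sorl1 entry, 47084 bases further into the gene and matching no GENCODE transcript of Sorl1, whose 250 upstream bases held neither of the motifs marked here, and it is not shown. The 250 upstream bases are written 5′ to 3′ on the strand of the gene, at chr9:42124298-42124547 (minus) for Sorl1 and chr7:90129963-90130212 (plus) for Picalm. Capitals mark the GC box GGGCGG on either strand and the E-box CACGTG, which reads the same on both strands; no match overlaps another.
Sorl1: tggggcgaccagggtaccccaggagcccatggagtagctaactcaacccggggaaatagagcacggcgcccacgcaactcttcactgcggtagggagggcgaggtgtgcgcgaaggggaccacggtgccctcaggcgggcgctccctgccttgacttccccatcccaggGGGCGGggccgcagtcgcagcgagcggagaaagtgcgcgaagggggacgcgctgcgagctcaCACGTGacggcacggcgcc
Picalm: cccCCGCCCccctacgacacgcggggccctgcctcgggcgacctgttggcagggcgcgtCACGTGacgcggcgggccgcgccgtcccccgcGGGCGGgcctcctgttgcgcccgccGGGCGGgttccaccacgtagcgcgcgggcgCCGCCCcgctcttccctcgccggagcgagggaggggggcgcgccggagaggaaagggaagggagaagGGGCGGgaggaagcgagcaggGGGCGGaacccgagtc
The Sorl1 stretch held 1 GC box, beginning 81 bases before the start, and 1 E-box, beginning 19 bases before it. The Picalm stretch held 6 GC boxes and 1 E-box. Of 32851 promoter stretches of this length, 32.7% held a GC box and 6.02% an E-box. The sequence GAGGAA, searched on both strands as the core of ETS factor sites, was present in 2 places in the Picalm stretch, in none in the Sorl1 stretch and in 23.3% of all stretches. The AP-1 sequence TGANTCA, which reads the same on both strands, was in neither and in 6.75% of all. These matches describe letters only.

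Total counts ranged from 18644807 to 24599193 outside and from 23241114 to 25882122 inside the graft, with the smallest total in outside graft 1, which was also weighted least (0.448). The 9 microglial marker genes summed to between 39630 and 46200 CPM (counts in a library scaled to 1000000 counts, with TMM factors) outside and between 34750 and 40200 CPM inside. Markers of blood cells moved with the group. The 8 monocyte genes summed to between 6.56 and 28.3 CPM outside and to 717, 81.0 and 1484 CPM in inside graft 1, 2 and 3. The 9 lymphocyte and neutrophil genes summed to between 0.320 and 168 CPM outside and to 3713, 388 and 7942 CPM inside, where nearly all of it was S100a8 and S100a9, while Ms4a1 was at 0 in every library. Ly6C and Ly6G were among the lineage antibodies in the sorting protocol of the study. The 10 genes of border-associated macrophages summed to between 11.2 and 35.8 CPM outside and to between 36.5 and 160 CPM inside. The 10 neuron genes summed to between 4.45 and 11.5 CPM outside and between 4.2 and 6.07 CPM inside. The 10 oligodendrocyte genes, mostly Cnp, summed to between 157 and 165 CPM outside and between 156 and 161 CPM inside. The 10 endothelial genes summed to between 37.5 and 61.3 CPM outside and between 30.7 and 40.4 CPM inside, with Tek, Itm2a and Esam at 0 in every library. In bulk libraries, fewer cells of a type and less RNA per cell cannot be told apart.

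Sorl1 was the member that stood furthest apart. Its level was 82.4, 70.6, 71.2 and 77.0 CPM in outside graft 1 to 4, and 138, 114 and 145 CPM in inside graft 1 to 3. All 3 inside values exceeded all 4 outside values, and the lowest inside value was 1.39 times the highest outside value. The means were 132 ± 16.1 CPM inside (SD, n = 3) and 75.3 ± 5.55 CPM outside (SD, n = 4), a log2 fold change of 0.81 ± 0.12 (SE, edgeR). With each library left out in turn, this change ran from 0.74 without inside graft 3 to 0.91 without inside graft 2. Sorl1 had between 1544 and 3507 counts in a library, so counting error was small beside these differences.

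The order of the inside libraries by Sorl1 was also their order by blood cell markers. The 17 monocyte, lymphocyte and neutrophil genes together summed to 4430, 469 and 9430 CPM in the inside libraries 1, 2 and 3. In outside graft 1 to 4 these markers summed to 6.88, 15.3, 196 and 45.0 CPM, and Sorl1 was at 82.4, 70.6, 71.2 and 77.0 CPM. In inside graft 2, the lowest inside library for both, the markers (469 CPM) and Sorl1 (114 CPM) were each above every outside library. The summed markers of border-associated macrophages, set beside Sorl1 after their values were seen, followed its order over all 7 libraries. They were at 35.8, 11.2, 16.6 and 22.4 CPM in outside graft 1 to 4, and at 139, 36.5 and 160 CPM in inside graft 1 to 3. The part of blood cells or border-associated macrophages in the Sorl1 difference was not tested beyond these values.

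**Figure D1:**
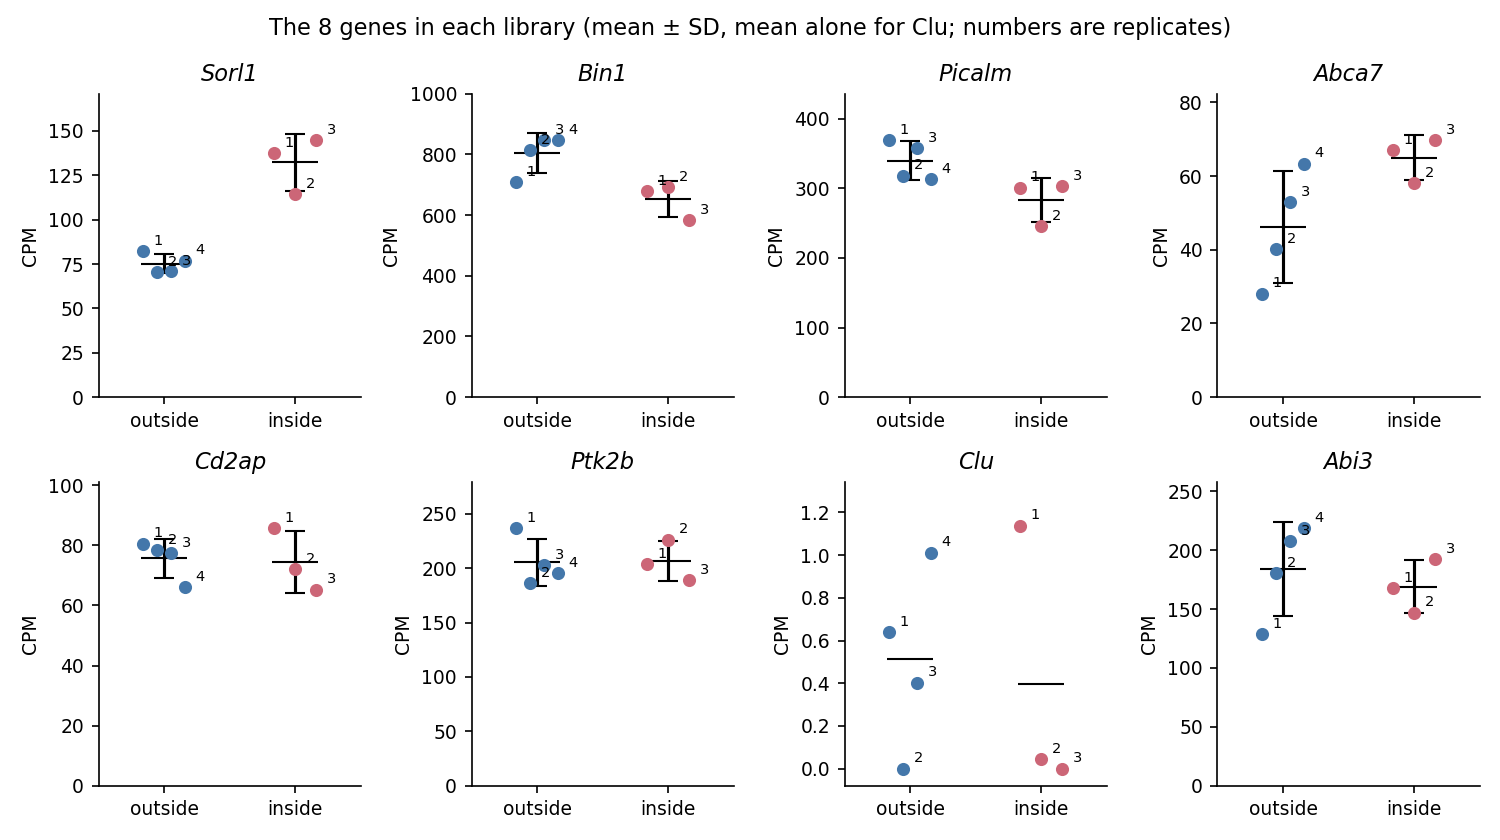
Level of the 8 genes in CPM (y axis, linear, from 0) in the 4 outside and 3 inside libraries. Points are libraries numbered by replicate, and bars are the mean ± SD, with the mean alone for Clu. Sorl1 is higher in all 3 inside libraries than in any outside library, Bin1 and Picalm are lower, and the groups overlap for the other 5.

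Of the 8 genes, Sorl1 was the 1 with every inside library above every outside library, a pattern found in 5.65% of all tested genes, and Bin1 and Picalm were the 2 with every inside library below, a pattern found in 5.02%. At an adjusted P below 0.05, limma's voomWithQualityWeights called 1 of the 8, Sorl1, and 0.492% of all genes. edgeR's quasi-likelihood test at the same threshold called 0 of the 8 and 0.0983% of all genes, with 2 of the 8 (Sorl1 and Bin1) at an unadjusted P below 0.05, as were 9.55% of all genes. In voomWithQualityWeights 3 of the 8 (these and Picalm) were at an unadjusted P below 0.05, as were 12.2% of all genes. The DESeq2 Wald test called Sorl1 after adjustment, but its share of all genes called is not given, so this call cannot be weighed. The members were selected on this contrast, so nothing is read from these counts. The voomWithQualityWeights call was absent without outside graft 3, outside graft 4, inside graft 1 or inside graft 3, and edgeR called Sorl1 without inside graft 2. Without outside graft 3 or 4, voomWithQualityWeights called 1 gene in all, and without inside graft 2 edgeR called 73.

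Sorl1 was also set against Sort1, which encodes sortilin, another VPS10 receptor, because a ratio inside a library does not depend on the scaling between libraries. The pair was picked after its values were seen. Sort1 was at 297, 261, 347 and 365 CPM outside and at 308, 242 and 302 CPM inside, with overlapping groups. In CPM per kilobase of exon, Sorl1 stood at 0.186, 0.181, 0.137 and 0.141 of the Sort1 level outside the graft. Inside it stood at 0.299, 0.316 and 0.321 of that level. The mean ratio was 0.312 ± 0.0113 (SD, n = 3) inside against 0.161 ± 0.0256 (SD, n = 4) outside. Relative to their mean, the ratios varied less than the Sorl1 levels inside but more than them outside, where Sorl1 had a coefficient of variation of 7.37%. Among the inside ratios, inside graft 2 was no longer the lowest of the 3.

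The 2 endocytic adaptors were lower inside the graft, by less than Sorl1 was higher. Bin1 (chr18:32377230-32435737, plus strand) was at 708, 814, 848 and 848 CPM outside and at 680, 693 and 584 CPM inside. The groups came close without overlapping, since the highest inside value was 0.979 of the lowest outside value, that of outside graft 1. The log2 fold change of Bin1 was -0.30 ± 0.11 (SE), and it ran from -0.36 without outside graft 1 to -0.23 without inside graft 3. Bin2, a BAR adaptor of blood cells and microglia that can pair with Bin1, was at 594, 622, 748 and 794 CPM outside and at 604, 607 and 567 CPM inside. The ratio of Bin1 to Bin2 in CPM per kilobase overlapped between groups, at 0.723 ± 0.0629 outside (SD, n = 4) and 0.675 ± 0.0377 inside (SD, n = 3).

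Picalm was at 370, 318, 358 and 313 CPM outside and at 301, 246 and 303 CPM inside. Here too the gap between the groups was narrow, with the highest inside value at 0.968 of the lowest outside value. The means were 283 ± 32.3 CPM inside (SD, n = 3) and 340 ± 28.3 CPM outside (SD, n = 4), and the log2 fold change was -0.26 ± 0.12 (SE). With each library left out in turn, it ran from -0.31 without inside graft 3 to -0.17 without inside graft 2, the lowest inside library. The summed microglial markers were also lower in inside graft 2 and 3 (36860 and 34750 CPM) than in any outside library, and their part in the Bin1 and Picalm values was not tested.

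**Figure D2:**
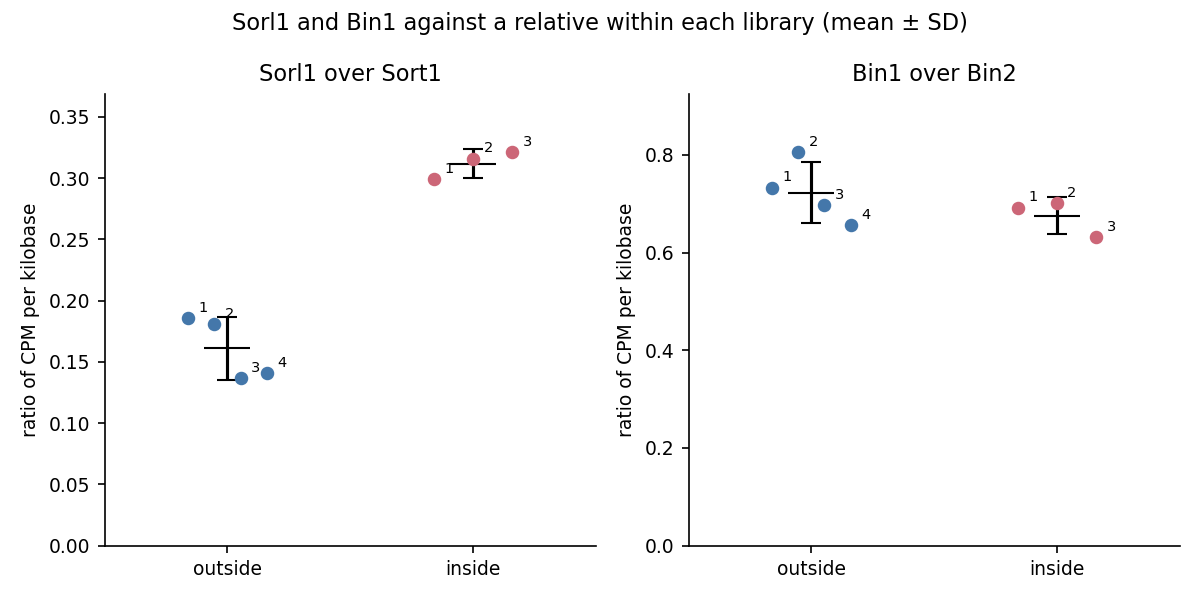
Ratio of Sorl1 to Sort1 (left) and of Bin1 to Bin2 (right), both in CPM per kilobase of exon (y axes, from 0), in outside and inside libraries. Points are libraries numbered by replicate and bars the mean ± SD. The 3 Sorl1 ratios inside (0.299 to 0.321) lie above the 4 outside (0.137 to 0.186), whereas the Bin1 ratios overlap.

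The lipid transporter Abca7 was the most variable of the well counted members outside the graft. It was at 28.1, 40.3, 53.0 and 63.4 CPM in outside graft 1 to 4 and at 67.0, 58.1 and 69.9 CPM inside. The groups overlapped, as outside graft 4 was above inside graft 2. The means were 65.0 ± 6.11 CPM inside (SD, n = 3) and 46.2 ± 15.3 CPM outside (SD, n = 4), for coefficients of variation of 9.39% and 33.1%. The log2 fold change of 0.49 ± 0.24 (SE) moved to 0.32 without outside graft 1 and to 0.68 without outside graft 4.

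Clu, the astrocyte-rich chaperone gene, was near the limit of detection in these sorted cells. It had 12, 0, 10 and 25 counts outside and 29, 1 and 0 counts inside. Neither group was uniform, and the highest and the lowest inside library spanned the whole range. A count of 0 allowed up to 0.133 CPM in outside graft 2 and 0.126 CPM in inside graft 3 (3 counts each, covering counting error only), against 1.01 CPM in outside graft 4 and 1.14 CPM in inside graft 1. Its log2 fold change was -0.37 ± 1.5 (SE) and ran from -4.25 without inside graft 1 to 0.21 without inside graft 3. The sign was positive without inside graft 2 (0.15) or 3 and negative in the other 3 of the 5 cases that gave a value, since Clu did not pass the filter without outside graft 1 or 4. No difference was detectable at this depth.

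Markers of astrocytes, the main source of clusterin in the brain, were also low. Of the 10, Gja1 was at 0 in all libraries, and Slc1a3 supplied most of a sum of 328 to 353 CPM outside and 250 to 300 CPM inside. Without Slc1a3 the other 9 summed to 7.95, 7.12, 2.45 and 2.83 CPM outside and to 14.9, 13.6 and 5.43 CPM inside. Inside graft 1 had the highest value of both this sum and Clu, but inside graft 2 had almost the same sum with 1 Clu count. The part of astrocyte RNA in the Clu counts was not tested.

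The genes tied to actin and adhesion differed least. Cd2ap was at 80.6, 78.6, 77.5 and 66.2 CPM outside and at 85.7, 72.2 and 65.3 CPM inside. The inside range enclosed the outside range, and the log2 fold change was -0.03 ± 0.14 (SE). Ptk2b was at 237, 187, 203 and 195 CPM outside and at 204, 226 and 189 CPM inside. Here the outside range enclosed the inside range, and the log2 fold change was 0.01 ± 0.12 (SE). With 1 library left out, the Cd2ap change ran from -0.14 to 0.06 and that of Ptk2b from -0.06 to 0.08, so neither had a steady sign.

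Abi3 was at 129, 181, 208 and 219 CPM outside and at 168, 147 and 193 CPM inside. The groups overlapped, with outside graft 1 below every other library, and the log2 fold change was -0.12 ± 0.18 (SE). Leaving out outside graft 1 gave -0.26, and leaving out outside graft 4 gave -0.03. Of the genes that overlap Abi3 on the other strand, Zfp652 was at 75.3 to 92.1 CPM outside and 72.5 to 115 CPM inside, and Gngt2 at 90.7 to 138 and 91.3 to 131 CPM, so both were levels comparable with that of Abi3 itself. How many of the Abi3 reads came from either was not tested.

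**Figure D3:**
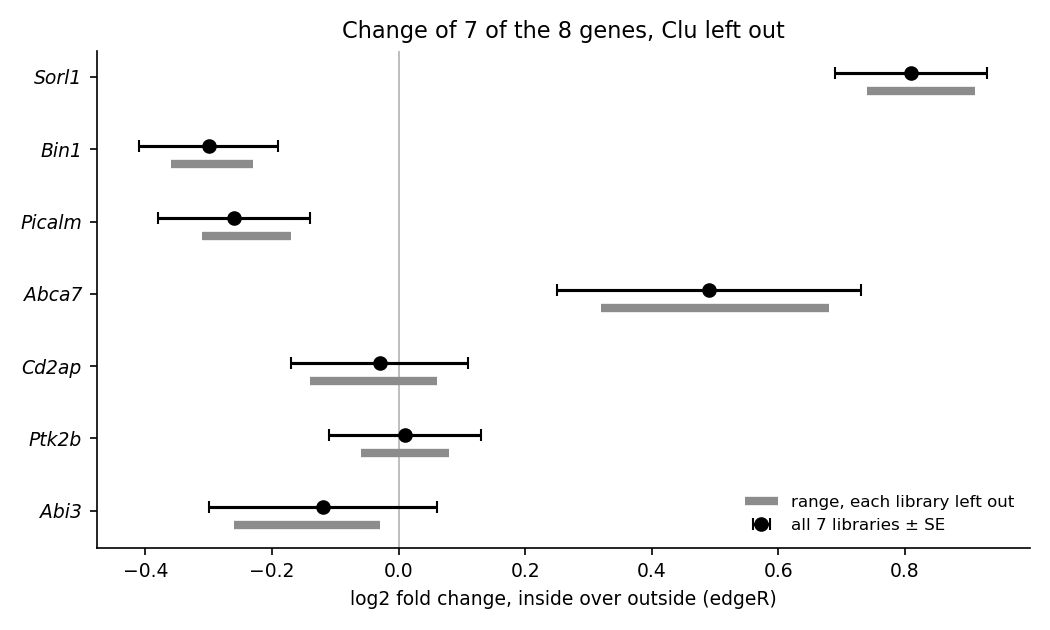
Log2 fold change (x axis, edgeR, inside relative to outside) for 7 genes, with Clu left out because of its standard error of 1.5. Black points are the values from all 7 libraries ± SE, and grey bars span the values with each library left out in turn. Sorl1 and Abca7 lie above 0, Bin1, Picalm and Abi3 below 0 also with any library left out, and the grey bars of Cd2ap and Ptk2b cross 0.

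Outside graft 1, the shallowest library, was the highest or lowest of the 4 outside libraries for 7 of the 8 genes. It was highest for Sorl1, Picalm, Cd2ap and Ptk2b and lowest for Bin1, Abca7 and Abi3. Outside graft 4 was at an end for 6 genes, outside graft 2 for 3 and outside graft 3 for none. The genes with the widest outside spread were Abca7 and Abi3 (coefficients of variation of 33.1% and 21.8%), apart from Clu. For Sorl1, Bin1, Picalm, Cd2ap and Ptk2b the coefficient of variation was between 7.37% and 10.7% outside.

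Levels can be compared roughly between genes per length of exon. The length is the deposited one over the annotated exons of a gene. Which of these exons the cells used was not tested, so close ranks are uncertain. Outside the graft Bin1 was highest, at 195 ± 16.1 CPM per kilobase (SD, n = 4), followed by Abi3 at 44.3 ± 9.68, Ptk2b at 27.8 ± 2.97 and Picalm at 21.6 ± 1.80. Abca7 at 6.84 ± 2.27, Sorl1 at 6.65 ± 0.490 and Cd2ap at 4.77 ± 0.409 CPM per kilobase formed the lower end, and Clu was at 0.150 ± 0.124. The ranges of the neighbours Abi3 and Ptk2b overlapped, as did those of Abca7 and Sorl1, and no other neighbours did. Inside the graft the order differed in 1 place: Sorl1, at 11.7 ± 1.42 CPM per kilobase (SD, n = 3), stood before Abca7 at 9.63 ± 0.904, although their ranges overlapped there too. Bin1 stood 3.89 times above Abi3, the next gene. The Abi3 level carries the limit of its shared exons.

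**Figure D4:**
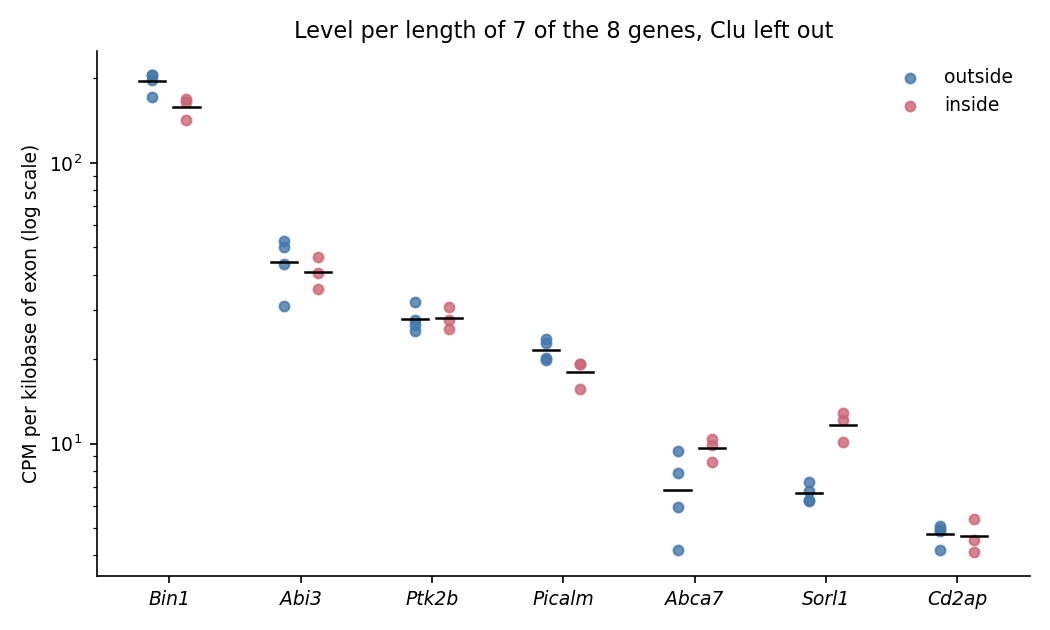
Level in CPM per kilobase of exon (y axis, log scale) of 7 genes in outside and inside libraries, ordered by the outside mean. Points are libraries and black lines group means. Bin1 lies above all others, and the ranges of Sorl1 and Abca7 overlap in both groups, inside only between 10.1 and 10.3 CPM per kilobase.

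Further genes of the same subject were counted over 7 lists with 119 genes, of which 102 were tested. Of these 102, 1 gene was called by voomWithQualityWeights and the same gene by edgeR at an adjusted P below 0.05, and 20 and 17 genes had an unadjusted P below 0.05. The called gene was Apoe, the apolipoprotein gene with the best known risk allele in humans. Apoe was at 1248, 1041, 627 and 868 CPM outside and at 3077, 8306 and 3989 CPM inside. Every inside library was above every outside library, but inside graft 2, the lowest for Sorl1, was the highest for Apoe. The log2 fold change of Apoe was 2.44 ± 0.32 (SE), with adjusted P values of 0.0357 in edgeR and 0.0136 in voomWithQualityWeights. Neither test called it without outside graft 3 or outside graft 4, and edgeR also did not without outside graft 2 or inside graft 3.

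By list, 18 of 20 further risk genes of immune signalling were tested and none was called, with 7 above and 11 below 0 and a median log2 fold change of -0.08. At an unadjusted P below 0.05, edgeR had 5 of them and voomWithQualityWeights 7. Inpp5d, a phosphatase that limits immune receptor signalling and one of the most abundant of this list, was at 1110 to 1409 CPM outside and 1090 to 1140 CPM inside. Tspan14, a tetraspanin that escorts the protease Adam10, was at 411 to 467 CPM outside and 326 to 432 CPM inside, and the groups overlapped for both. They did not overlap for 5 genes of this list, which were picked after their values were seen and of which none was called: Prkd3 and Pilra were above in every inside library, at log2 fold changes of 0.44 and 0.48, and Spi1, Cd33 and Rin3 were below, at -0.29, -0.21 and -0.44. Of the list of lipid, lysosome and protease risk genes, 13 of 14 were tested, 10 lay above and 3 below 0, the median was 0.10, and Apoe was the 1 called. In 4 of the 13 every inside library was above every outside library, Apoe and, also seen only afterwards and not called, Ctsb, Ctsh and Adamts1, at 0.57, 0.30 and 1.13. Of the 20 risk genes of other functions, 16 were tested and none was called, 4 lay above and 12 below 0 with a median of -0.07, and 2 had an unadjusted P below 0.05 in either test. Its most abundant genes per length, Cox7c and Bckdk, overlapped between groups, at 47.2 to 65.6 and 51.7 to 70.5 CPM for Cox7c and at 79.4 to 114 and 90.1 to 102 CPM for Bckdk. Over all 7 lists, every inside library was above in 11 of 102 genes (10.8%) and below in 7 (6.86%), beside the 5.65% and 5.02% of all genes given above. The median over all 15257 genes was -0.01.

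The partners of the members differed little. Of the Sorl1 relatives and retromer genes, 14 of 17 were tested and none was called. Their log2 fold changes lay between -0.32 and 0.32 with a median of -0.05. Sorl1, at 0.81, lay outside this range, but it was chosen with this contrast known, so nothing is read from that. Snx5 and Snx3, sorting nexins that shape endosomal carriers, were at 486 to 573 and 112 to 141 CPM outside and at 486 to 512 and 114 to 154 CPM inside. Of the clathrin endocytosis genes, 18 of 20 were tested, none was called, and the median was -0.03. Clta, a clathrin light chain, was at 201 to 262 CPM outside and 220 to 278 CPM inside, and Bin2 at 594 to 794 and 567 to 607 CPM. At an unadjusted P below 0.05, each test had 2 of the retromer list, and edgeR had 2 and voomWithQualityWeights 3 of the clathrin list.

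Of the actin and adhesion partners of Abi3, Cd2ap and Ptk2b, 16 of 18 were tested and none was called, with a median of -0.01 and 8 genes on each side of 0. Brk1, a WAVE complex subunit, was at 197 to 287 CPM outside and 189 to 244 CPM inside, and Capza2, an actin capping subunit, at 1065 to 1140 and 889 to 1123 CPM. Of the lipid transport relatives of Abca7 and Clu, 7 of 10 were tested, none was called, and the median was 0.10. Lrp1, a large endocytic receptor for apolipoproteins, was at 1245 to 1558 CPM outside and 1111 to 1363 CPM inside, and Abca9, a relative of Abca7, at 495 to 682 and 463 to 829 CPM. At an unadjusted P below 0.05, edgeR had 2 genes of each of these lists and voomWithQualityWeights 1 of each.

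**Figure D5:**
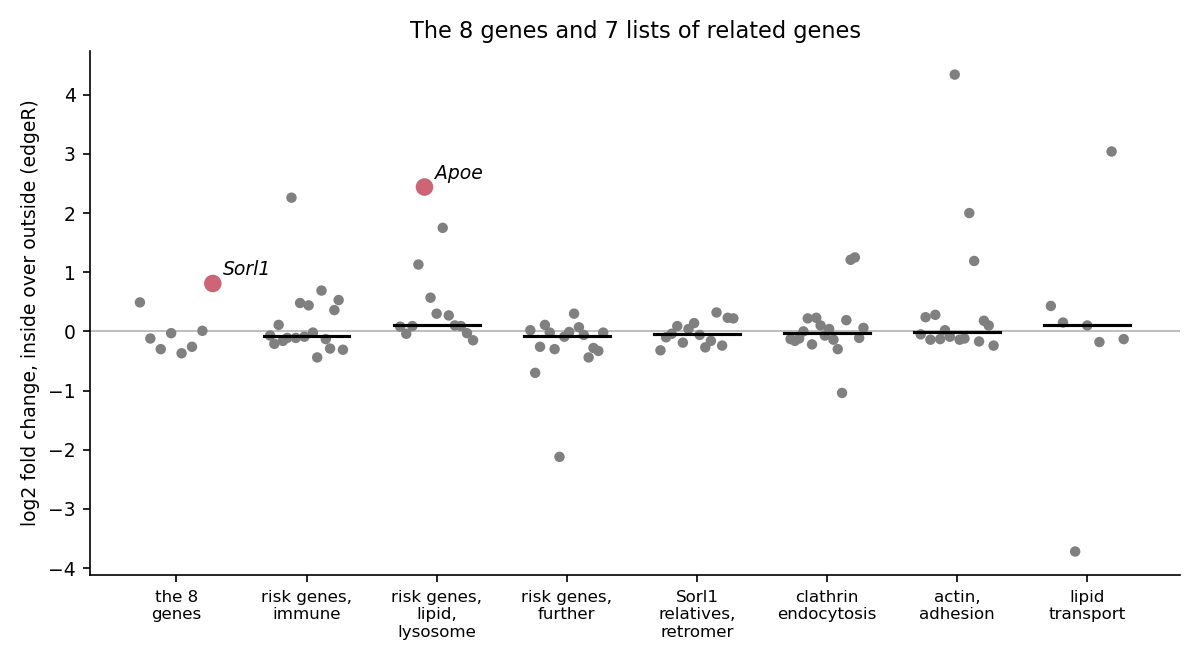
Log2 fold change (y axis, edgeR, inside relative to outside) of the 8 genes and of the tested genes of 7 lists (x axis). Each point is a gene, larger red points have an adjusted P below 0.05 in edgeR or voomWithQualityWeights, and black lines are list medians, which lie between -0.08 and 0.10. Sorl1 and Apoe are the points in red.

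The genes whose course over the 7 libraries was most like that of Sorl1 were sought among 8917 genes with a mean of at least 10 CPM, by the mean absolute difference of centred log2 CPM. These were Aldh2, a mitochondrial aldehyde dehydrogenase, with a mean difference of 0.0778, Odc1, the ornithine decarboxylase of polyamine synthesis, with 0.0962, and Rfc5, a subunit of the clamp loader of DNA replication, with 0.131. Aldh2 was at 65.8, 64.3, 52.5 and 62.8 CPM outside and at 117, 89.5 and 126 CPM inside. Like Sorl1, it was lowest in inside graft 2 and highest in inside graft 3 among the inside libraries. Odc1 was also lowest in inside graft 2, whereas Rfc5 was lowest in inside graft 1.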

How the data were processed

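RNA of CD11b+CD45low cells was amplified with a SMART-Seq v4 kit and sequenced as single reads. The authors aligned the reads with STAR 2.7.2a and deposited the raw featureCounts 1.6.2 counts of each gene name on GENCODE M21 (GRCm38.p6), 1 column per library and without normalization. Strand was not used, multi-mapping reads were left uncounted, and a read over several genes went to the largest overlap. No molecular identifiers marked the amplified molecules, so limits cover counting error only.

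Genes were filtered with filterByExpr by group and scaled with TMM (R 4.3.3, edgeR 4.0.16). Inside and outside libraries were grouped by their labels. Differences were fitted with edgeR's glmQLFit and glmQLFTest, whose log2 fold changes and standard errors are printed, and with voomWithQualityWeights in limma 3.58.1, the test of the study. P values were adjusted by Benjamini-Hochberg over all 15257 genes with a threshold of 0.05. DESeq2 1.42.0, other scalings and filters, unweighted voom, a threshold of 0.01, a replicate block and the removal of each library were alternatives. CPM per kilobase used the exon length deposited with the counts. A pseudocount of 0.5 CPM was used for the likeness to Sorl1. The scripts were tested on simulated data. Of simulated 2-fold changes, edgeR recovered 35.9% and voomWithQualityWeights 35.4%, so a gene that was not called may still differ. No library was a repeat of another (chi-square divided by its degrees of freedom 17.8 or more for every pair within a group).

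The 8 genes, the lists, markers and rules were chosen with earlier results of these data known. Beside the 8 genes, named genes were those called in a list (at most 4), otherwise the 2 with the highest CPM per kilobase of each list, and the 3 most like Sorl1. Sort1, Zfp652 and Gngt2, and the markers named, were added beside single results. Another 2 marker genes are not reported here and were left out of the marker sums.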

Additional observations from a re-analysis of the deposited data

Results flagged for a closer look

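In the 4 outside libraries, 32 values (the levels of the 8 genes and of the other named genes, and the summed marker lists) were searched for a library far from the other 3, and 3 were found, where chance gives about 1 in 20, or 1.6. None was a level of the 8 genes. The summed neuron markers were 11.5 CPM in outside graft 1 against 4.45 to 5.55 CPM in the other 3. In the same library the summed oligodendrocyte markers were 157 CPM against 164 to 165 CPM, a small difference. The summed lymphocyte and neutrophil markers were 168 CPM in outside graft 3 against 0.320 to 17.3 CPM, and Sorl1 in that library was 71.2 CPM, within the range of the outside libraries. Groups of 3, such as the inside libraries, were not searched.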

How the results depend on the processing

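Among the 8 genes, the log2 fold change moved by more than the spread between libraries in 1 of 108 recomputations, that of Clu without inside graft 1 (-4.25). Sorl1 ran from 0.74 to 0.91 over its 14 alternatives and Abca7 from 0.32 to 0.72. The count of the 8 called by voomWithQualityWeights, 1, was 2 with no filter on low counts and 0 for voom without weights or at an adjusted P below 0.01, and it ran from 0 to 1 with each library left out. In edgeR, the count of 0 was 1 with upper quartile normalization, with no filter and with at least 10 counts in every library, as in the DESeq2 Wald test, and ran from 0 to 1 with each library left out. Calls over all genes moved with the setting too. In edgeR they were 15 in the main fit, 16, 366 and 92 in these 3 settings, and 0 to 73 with each library left out. The calls of DESeq2 over all genes are not given. In voomWithQualityWeights they were 75 in the main fit, 225 with no filter and 1 to 207 with each library left out. Of the genes in the 7 lists, the edgeR count of 1 was 4 with no filter, 4 in DESeq2 and 0 at an adjusted P below 0.01, and ran from 0 to 2 with each library left out, being 2 when outside graft 1 was removed and 0 when inside graft 3 or any of outside graft 2, 3 and 4 was. The voomWithQualityWeights count of 1 was 0 at 0.01 and ran from 0 to 2, being 0 on removal of outside graft 3 or 4 and 2 on removal of outside graft 1, inside graft 2 or inside graft 3. Apoe was not called by voomWithQualityWeights with no filter, at a log2 fold change of 2.40. The causes of these shifts were not tested. Deviations of inside and outside libraries with the same replicate number correlated at -0.0432, 0.0902 and 0.0666. Such values cannot decide whether those libraries came from the same mouse. With the number as a replicate block, which leaves out outside graft 4, the counts for the 8 genes were 1 in voomWithQualityWeights and 0 in edgeR, and those for the lists 4 and 2. Those over all genes were 265 and 43. The median of all genes shifted by at most 0.035 (library size alone, -0.035) with the scaling. Depth limits Clu, with 77 counts in 7 libraries.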
